A study of Mus musculus with 12 samples.

Results

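The 8 genes described here encode regulators of G protein signalling (RGS proteins): Rgs1, Rgs2, Rgs3, Rgs10, Rgs14, Rgs16, Rgs18 and Rgs19. They were taken by name from the 47359 gene rows of the deposited count table, and each had a value in all 12 libraries. The study transferred TH17 cells, the helper T cells that make IL-17, into RAG2-/- mice, hosts without T or B cells. The cells were recovered from the central nervous system (CNS) at the height of experimental autoimmune encephalomyelitis, in which mice develop a disease like multiple sclerosis. All donor cells carried the 2D2 label, a T cell receptor transgene against myelin oligodendrocyte glycoprotein. Living cells were sorted by CXCR6 or SLAMF6 on their surface, 1000 per library. The groups were IL-17A/F double-knockout (DKO) CXCR6+ cells with 1 library, DKO SLAMF6+ cells with 1 library, wild-type (WT) CXCR6+ cells with 5 libraries and WT SLAMF6+ cells with 5 libraries. The labels give no age or sex and do not say whether the WT libraries of a group came from separate mice, so p-values measure only the spread between these libraries, which may be technical.

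A G protein-coupled receptor switches on a G protein by loading its alpha subunit with GTP. RGS proteins bind the active alpha subunit and speed its hydrolysis of GTP, which ends the signal. In lymphocytes many receptors of this class are chemokine and lipid receptors that couple to Gi and guide migration, and RGS proteins set how strongly and how long such cells respond. Rgs1, Rgs2, Rgs3, Rgs16 and Rgs18 belong to the R4 subfamily, Rgs10 and Rgs14 to the R12 subfamily and Rgs19 to the RZ subfamily.

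Levels are given in CPM, the count of a gene relative to the library total after TMM scaling, and WT values as the mean ± SD over 5 libraries. Library totals were 8552216 counts in DKO CXCR6+, 8285134 in DKO SLAMF6+, 6818658 to 8710148 in WT CXCR6+ and 8134987 to 11635037 in WT SLAMF6+. Il17a had 0 counts in DKO CXCR6+ and 3 in DKO SLAMF6+, against at least 1622 counts in every WT library. The DKO libraries stood apart in other respects. Trbv16, the beta-chain variable segment of the 2D2 receptor, made up 9.96% and 6.51% of Trbv counts in DKO CXCR6+ and DKO SLAMF6+, against 99.6% to 99.8% in WT, which goes against a 2D2 label for most of the receptor RNA in the DKO libraries. Xist had 0 counts in both DKO libraries and at least 447 in each WT library, while Ddx3y had 314 counts in DKO CXCR6+, 249 in DKO SLAMF6+ and 0 in all WT libraries. Summed markers of CD4 T cells were 4653 CPM in DKO CXCR6+, within the 3971 to 6096 CPM of WT CXCR6+. In DKO SLAMF6+ they were 5036 CPM, below the 6233 to 7309 CPM of WT SLAMF6+. The 12 monocyte and macrophage markers summed to 1008 CPM in DKO CXCR6+ and 589 in DKO SLAMF6+, against 50.5 to 101 CPM in WT. In DKO CXCR6+, 6 of them had 0 counts, and Lyz2 and Csf1r had 10.4 and 1.04 CPM, so the rest of the list made up most of that sum. In DKO SLAMF6+, Lyz2 and Csf1r had 1.88 and 13.0 CPM. Haemoglobin genes took 11.9% of the counts of DKO SLAMF6+. These differences cannot be told apart from genotype in any comparison of DKO with WT below, since each subset has 1 DKO library.

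Promoter windows are shown for Rgs2 and Rgs16, which fell in both DKO libraries, and for Rgs10, which rose in both and also differed between the WT subsets. RefSeq promoter windows (GRCm38.p6, 250 bases before to 50 bases after an annotated start) were matched for 5 of the 8 genes, with Rgs1, Rgs14 and Rgs18 unmatched. Rgs2 is shown at chr1:144004100-144004399, minus strand, Rgs16 at chr1:153740103-153740402, plus strand, and Rgs10 at chr7:128418123-128418422, minus strand, each read 5′ to 3′ along the gene. Capitals mark matches to the letters ACGTCA, to CCAAT or to TAAAAG on either strand.
Rgs2: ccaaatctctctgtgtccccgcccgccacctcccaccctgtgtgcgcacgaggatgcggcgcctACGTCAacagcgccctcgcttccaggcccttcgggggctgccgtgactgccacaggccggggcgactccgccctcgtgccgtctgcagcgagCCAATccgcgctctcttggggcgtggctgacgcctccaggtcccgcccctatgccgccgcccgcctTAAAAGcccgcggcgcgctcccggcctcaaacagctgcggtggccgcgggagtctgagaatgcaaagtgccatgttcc
Rgs16: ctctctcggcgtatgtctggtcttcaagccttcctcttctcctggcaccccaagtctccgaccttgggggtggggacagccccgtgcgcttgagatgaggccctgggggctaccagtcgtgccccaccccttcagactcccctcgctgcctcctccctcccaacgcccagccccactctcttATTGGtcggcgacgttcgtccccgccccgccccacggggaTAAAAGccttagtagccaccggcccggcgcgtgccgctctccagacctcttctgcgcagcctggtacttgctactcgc
Rgs10: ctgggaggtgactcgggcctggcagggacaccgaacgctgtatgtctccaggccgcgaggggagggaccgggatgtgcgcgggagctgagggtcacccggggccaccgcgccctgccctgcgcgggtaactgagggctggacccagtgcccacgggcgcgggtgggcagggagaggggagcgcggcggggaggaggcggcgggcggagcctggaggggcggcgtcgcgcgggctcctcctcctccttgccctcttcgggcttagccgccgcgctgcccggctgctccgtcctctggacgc
The Rgs2 window held ACGTCA, the core of a cAMP response element, at position -186 from the start, CCAAT at -94 and TAAAAG at -28. The Rgs16 window held CCAAT on the opposite strand at -68 and the same TAAAAG, which resembles a TATA box, at -28. The Rgs10 window held none of these letters. Of all 32851 windows in the table, 7.51% held ACGTCA, 37.4% held CCAAT and 15.2% held TAAAAG on either strand. The letters GGAAA, an NFAT core found in 61.3% of all windows, and TGANTCA, an AP-1 site found in 7.81%, were in none of the 3. GC content was 70%, 66% and 76% in the Rgs2, Rgs16 and Rgs10 windows, against a median of 52.7% over all windows. The letters were chosen after these sequences had been read, and matches are a description of the sequence only.

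In DKO CXCR6+ cells, 7 of the 8 Rgs genes passed the low-count filter and all 7 differed from WT CXCR6+ cells. Rgs1, Rgs2 and Rgs16 fell, and Rgs3, Rgs10, Rgs14 and Rgs19 rose. In that comparison 28.7% of all 21565 tested genes were called, 15.9% lower and 12.8% higher. In DKO SLAMF6+ cells the 7 genes were called in the same directions, beside 31.1% of all genes, with 17.5% lower and 13.5% higher. The direction of each of the 7 genes in both DKO comparisons was the same in all 26 alternative settings. The median log2 fold change of the 7 genes was 1.32 in CXCR6+ cells, against -0.22 over all tested genes, and 0.63 in SLAMF6+ cells, against -0.05. With 4 genes higher and 3 lower, these medians were the values of Rgs3 and of Rgs19, and they do not describe a shift of the 7 genes. All were tested by edgeR (quasi-likelihood), with p-values adjusted by the Benjamini-Hochberg method over all tested genes and a threshold of 0.05. With 1 DKO library per subset, the test takes its spread from WT and assumes that DKO libraries would vary to the same extent. In these bulk libraries, fewer cells that express a gene and less of its RNA per cell cannot be told apart.

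**Figure D1:**
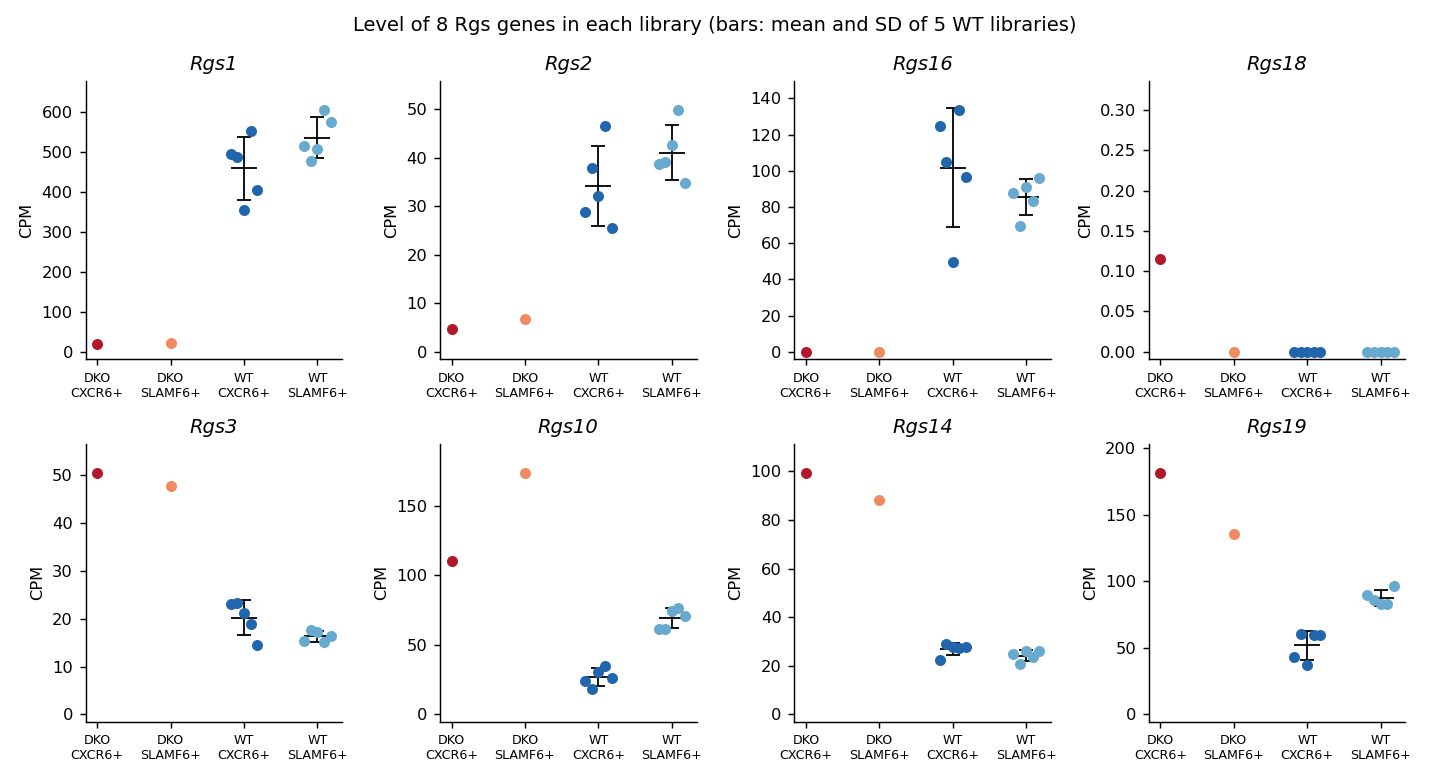
Level of each of the 8 Rgs genes in CPM (linear axes, each from about 0) in every library, with 1 point per library and bars for the mean and SD of the 5 WT libraries of a subset. Rgs1, Rgs2 and Rgs16 lie lower in both DKO libraries than in any WT library of their subset, and Rgs3, Rgs10, Rgs14 and Rgs19 lie higher.

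Rgs1, which limits the response of B and T cells to chemokines and helps hold them in tissue, had the highest level per transcript length of the 8 genes in WT cells. Its level was 18.6 CPM in DKO CXCR6+, against 493, 487, 354, 551 and 405 CPM in WT CXCR6+. It was 21.9 CPM in DKO SLAMF6+, against 515, 477, 507, 604 and 574 CPM in WT SLAMF6+. Both DKO libraries lay far below every WT library, while the WT subsets overlapped. Rgs1 fell 24.6-fold in DKO CXCR6+ (log2 fold change -4.62, SE 0.291, edgeR adjusted p = 1.11e-06) and 24.5-fold in DKO SLAMF6+ (-4.61, SE 0.291, adjusted p = 1.25e-06). The DKO values rest on 161 and 151 counts.

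Rgs16, which acts on Gi and Gq and is induced in T cells on activation, had 0 counts in DKO CXCR6+ and 0 in DKO SLAMF6+. WT CXCR6+ libraries had 125, 105, 49.6, 134 and 96.5 CPM, and WT SLAMF6+ libraries had 87.6, 69.4, 91.1, 83.1 and 95.9 CPM. No WT library came near 0, and WT CXCR6+ replicate 3 was the lowest of the 10. A floor of 3 counts was 0.347 CPM in DKO CXCR6+ and 0.434 in DKO SLAMF6+, so Rgs16 was at least 293-fold lower in DKO CXCR6+ than the WT CXCR6+ mean of 102 ± 32.8 CPM. In DKO SLAMF6+ it was at least 197-fold lower than the WT SLAMF6+ mean of 85.4 ± 10.1 CPM. The edgeR adjusted p was 1.04e-05 in CXCR6+ and 1.65e-05 in SLAMF6+, while limma-voom gave 0.127 and 0.138 for the same comparisons (range over the alternatives 4.54e-08 to 0.128 and 2.57e-07 to 0.139). Rgs16 exons share 236 bases with Gm28513 on the opposite strand, and the library kit does not mark strand, so reads there cannot be assigned to either gene.

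Rgs2, an inhibitor of Gq signalling with a marked preference for that alpha subunit, had 4.62 CPM in DKO CXCR6+, against 28.8, 37.9, 32.0, 46.5 and 25.4 CPM in WT CXCR6+. Its level was 6.66 CPM in DKO SLAMF6+, against 38.7, 39.0, 42.7, 49.8 and 34.7 CPM in WT SLAMF6+. Neither DKO library overlapped the WT libraries of its subset. Rgs2 fell 7.36-fold in DKO CXCR6+ (log2 fold change -2.88, SE 0.363, edgeR adjusted p = 0.000134) and 6.14-fold in DKO SLAMF6+ (-2.62, SE 0.355, adjusted p = 0.00023). It rested on 40 and 46 counts in the DKO libraries, the fewest of the genes with counts in both.

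Among the other R4 members, Rgs3 moved the opposite way and Rgs18 was barely detected. Rgs3, which acts on Gi and Gq and is made in long and short forms, had 50.4 CPM in DKO CXCR6+, against 23.0, 23.2, 21.2, 18.8 and 14.4 CPM in WT CXCR6+. In DKO SLAMF6+ it had 47.6 CPM, against 15.2, 17.5, 17.1, 15.1 and 16.4 CPM in WT SLAMF6+. Each DKO value was above all 5 WT values of its subset. Rgs3 rose 2.50-fold in DKO CXCR6+ (log2 fold change 1.32, SE 0.202, edgeR adjusted p = 0.000526) and 2.93-fold in DKO SLAMF6+ (1.55, SE 0.201, adjusted p = 0.000171). Gene-level counts cannot say which form of Rgs3 was measured.

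Rgs18, best known from platelets and megakaryocytes, had 1 count in DKO CXCR6+ (0.116 CPM) and 0 counts in the other 11 libraries. It did not pass the filter and was not tested. The 8 platelet and megakaryocyte markers summed to 24.7 CPM in DKO CXCR6+ and 23.9 in DKO SLAMF6+, against 10.5 to 18.3 CPM in WT, and of these Pf4, Ppbp and Treml1 had 0 counts in both DKO libraries.

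Rgs10 and Rgs14, both of the R12 subfamily, rose in both DKO libraries. They do not stand for the whole subfamily: Rgs12, described below, fell in DKO CXCR6+ and was not called in DKO SLAMF6+. Rgs10, a small protein that acts on alpha subunits of the Gi class, had 111 CPM in DKO CXCR6+, against 24.3, 18.2, 30.7, 34.6 and 26.6 CPM in WT CXCR6+. Its level was 174 CPM in DKO SLAMF6+, against 61.8, 61.3, 74.8, 76.6 and 71.1 CPM in WT SLAMF6+. The DKO libraries were the highest in each subset, and SLAMF6+ was above CXCR6+ in both genotypes. Rgs10 rose 4.12-fold in DKO CXCR6+ (log2 fold change 2.04, SE 0.229, edgeR adjusted p = 5.75e-05) and 2.52-fold in DKO SLAMF6+ (1.33, SE 0.236, adjusted p = 0.00136).

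Rgs14, which joins an RGS domain to a motif that binds inactive Gi and to Ras-binding domains, had 99.4 CPM in DKO CXCR6+, against 22.6, 29.0, 27.9, 27.3 and 27.9 CPM in WT CXCR6+. In DKO SLAMF6+ it had 88.2 CPM, against 24.7, 20.6, 25.9, 23.7 and 26.01 CPM in WT SLAMF6+. All 10 WT libraries lay within a narrow range and both DKO libraries lay well above it. Rgs14 rose 3.69-fold in DKO CXCR6+ (log2 fold change 1.88, SE 0.137, edgeR adjusted p = 2.67e-06) and 3.64-fold in DKO SLAMF6+ (1.86, SE 0.138, adjusted p = 3.35e-06).

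Rgs19, also called GAIP, acts on Gi and Gz and was higher in DKO CXCR6+ than in any other library. It had 181 CPM there, against 43.2, 60.2, 37.4, 59.5 and 59.4 CPM in WT CXCR6+. In DKO SLAMF6+ it had 135 CPM, against 89.7, 85.9, 82.6, 82.6 and 96.1 CPM in WT SLAMF6+. Rgs19 rose 3.49-fold in DKO CXCR6+ (log2 fold change 1.80, SE 0.203, edgeR adjusted p = 5.96e-05). In DKO SLAMF6+ it rose 1.55-fold (0.63, SE 0.219, adjusted p = 0.0495), a call that sat at the threshold. It was lost in 10 of the 15 settings that left out WT libraries: without WT CXCR6+ replicate 5, without any 1 of the 5 WT SLAMF6+ libraries, and without both libraries numbered 1, 2, 4 or 5. The adjusted p ran from 0.000679 to 0.218 over all alternatives.

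The test of whether the DKO effect differed between CXCR6+ and SLAMF6+ cells called Rgs19 and none of the other 6 genes, beside 10.3% of all tested genes, with 6.36% higher and 3.94% lower. The rise of Rgs19 was 2.25-fold larger in CXCR6+ than in SLAMF6+ (log2 difference 1.17, SE 0.326, edgeR adjusted p = 0.0452). That call held in 5 of the 15 settings that left out WT libraries, and was lost without WT CXCR6+ replicate 1, any 1 of the WT SLAMF6+ libraries, or both libraries numbered 1, 2, 4 or 5. Its adjusted p ran from 0.00221 to 0.222 over the alternatives. For Rgs10 the log2 difference was 0.71 (95% interval -0.10 to 1.52, adjusted p = 0.281). For Rgs1 it was -0.01 (95% interval -0.67 to 0.66). Rgs16 had 0 counts in both DKO libraries, which leaves no estimate of the difference.

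**Figure D2:**
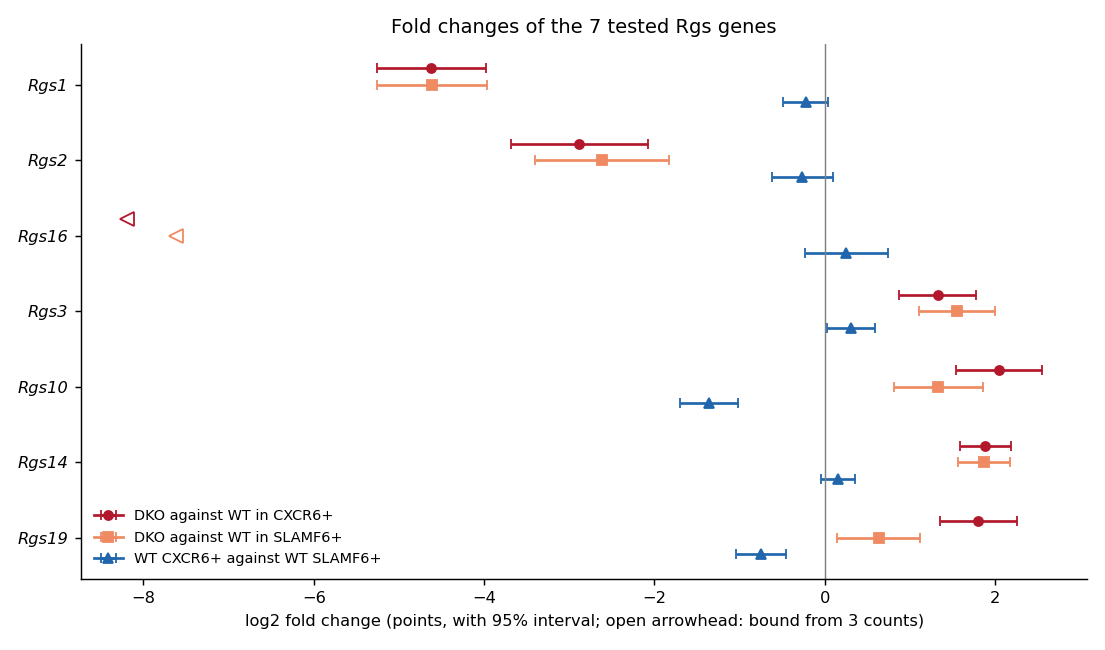
Log2 fold change of the 7 tested Rgs genes (linear axis in log2 units) for DKO against WT in CXCR6+, DKO against WT in SLAMF6+ and WT CXCR6+ against WT SLAMF6+, with points for the edgeR estimate, bars for its 95% interval and open arrowheads for Rgs16, at least 8.20 and 7.62 lower. Rgs1, Rgs2 and Rgs16 lie left of 0 and Rgs3, Rgs10, Rgs14 and Rgs19 right of 0 in both DKO comparisons, while in WT only Rgs10 and Rgs19 were called.

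The DKO libraries lay outside the range of the 5 WT libraries of their subset for all 7 tested Rgs genes, beside 57.7% of all tested genes in CXCR6+ and 66% in SLAMF6+. Several marker lists moved with the same libraries. The 7 neutrophil markers summed to 929 CPM in DKO CXCR6+ and 91.8 in DKO SLAMF6+, against 0 to 2.90 CPM in WT CXCR6+ and 0 to 0.294 CPM in WT SLAMF6+, with Mpo at 0 in both DKO libraries. In DKO CXCR6+, 6 of the 12 monocyte and macrophage markers had 0 counts, among them Adgre1 and C1qa, and in DKO SLAMF6+ 1 had 0 counts. Of the same list, Lyz2 had 10.4 CPM in DKO CXCR6+ and 1.88 in DKO SLAMF6+, against at most 0.112 CPM in WT. Csf1r had 1.04 and 13.0 CPM, against at most 1.21 CPM in WT. The 7 markers of microglia, brain macrophages in which Rgs10 is also known to be abundant, summed to 71.4 CPM in DKO CXCR6+, against 21.1 to 42.6 CPM in WT CXCR6+, and to 84.9 CPM in DKO SLAMF6+, against 62.7 to 83.3 CPM in WT SLAMF6+. Of these, P2ry12 had 0 counts in both DKO libraries. The 5 natural killer cell markers summed to 177 and 164 CPM in DKO CXCR6+ and DKO SLAMF6+, against 5.78 to 14.6 CPM in WT. The 5 regulatory T cell markers, which include the activation genes Ctla4 and Il2ra, summed to 216 and 170 CPM, against 1458 to 1970 CPM in WT. Cd3e, a chain of the T cell receptor complex, had 578 and 544 CPM, against 160 ± 14.2 CPM in WT CXCR6+ and 233 ± 10.1 in WT SLAMF6+. Cd4 had 319 and 337 CPM, against 259 ± 52.9 CPM in WT CXCR6+ and 298 ± 21.7 in WT SLAMF6+. The 10 CD4 T cell markers, which include both, did not sum to more than in WT. Their sum was 4653 CPM in DKO CXCR6+, against 3971 to 6096 CPM in WT CXCR6+. In DKO SLAMF6+ it was 5036 CPM, against 6233 to 7309 CPM in WT SLAMF6+. Whether these sums reflect other cells, and their part in the Rgs values, was not tested. Without the haemoglobin genes, every Rgs call in DKO SLAMF6+ kept its side of the threshold except that of Rgs19 (edgeR adjusted p = 0.0515, range over the alternatives 0.000679 to 0.218), a setting chosen after seeing the data.

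In WT cells, Rgs10 and Rgs19 were lower in CXCR6+ than in SLAMF6+ cells, and the other 5 tested Rgs genes did not pass the test. That is 2 of 7 genes, beside 33.3% of all tested genes called, 15.6% higher and 17.7% lower. The median log2 fold change was -0.23 over the 7 and 0.13 over all tested genes. Rgs10 averaged 26.9 ± 6.24 CPM in WT CXCR6+ and 69.1 ± 7.19 in WT SLAMF6+, a 2.57-fold lower level in CXCR6+ (log2 fold change -1.36, SE 0.154, edgeR adjusted p = 5.35e-05). Rgs19 averaged 51.9 ± 10.8 CPM in WT CXCR6+ and 87.4 ± 5.69 in WT SLAMF6+, a 1.68-fold lower level (-0.75, SE 0.134, adjusted p = 0.00125). For both genes all 5 WT CXCR6+ libraries were below all 5 WT SLAMF6+ libraries, and 27.8% of all tested genes were separated in this way in either direction.

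The sizes of these differences depended on how composition was treated. With each library's trend on GC content and transcript length removed, Rgs10 was still lower (log2 -0.49, adjusted p = 0.0177, range over the alternatives 6.74e-19 to 0.0177). Rgs19 was then not called (-0.15, adjusted p = 0.383, range 6.82e-08 to 0.383), and Rgs1 was called lower in CXCR6+ (-0.65, adjusted p = 0.000976, range 0.000976 to 0.765). Mitochondrial genes took 12.9% to 17.6% of counts in WT CXCR6+ and 2.20% to 5.24% in WT SLAMF6+. The microglia markers summed to 21.1 to 42.6 CPM in WT CXCR6+ and 62.7 to 83.3 CPM in WT SLAMF6+. The part of either in these differences was not tested. The mitochondrial tRNA gene mt-Ts1 was listed at 0 in 1 WT CXCR6+ and 4 WT SLAMF6+ libraries. The log2 fold change of Rgs10 was -1.55 within those libraries and -1.16 within the other 4 WT CXCR6+ and 1 WT SLAMF6+ libraries. Rgs19 gave -1.02 and -0.67 in the same order. Each of these fits leaves a subset with 1 library, assumed to vary like the others. They cannot tell the subset from that library, so the part of mt-Ts1 was not tested.

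The remaining Rgs genes overlapped between WT CXCR6+ and WT SLAMF6+. Rgs1 averaged 458 ± 78.1 CPM in WT CXCR6+ and 535 ± 51.9 in WT SLAMF6+ (log2 fold change -0.23, 95% interval -0.49 to 0.04, edgeR adjusted p = 0.160). Rgs2 averaged 34.1 ± 8.30 CPM in WT CXCR6+ and 41.0 ± 5.67 in WT SLAMF6+ (-0.26, interval -0.62 to 0.10, adjusted p = 0.230). Neither direction was the same under every setting. The Rgs1 estimate was 0.04 when only genes of at least 10 CPM in 5 libraries were kept, a setting that moved the median of all genes by 0.26, and the Rgs2 estimate was 0.09 with GC and length offsets, which moved it by 0.24. Rgs14 averaged 26.9 ± 2.51 CPM in WT CXCR6+ and 24.2 ± 2.21 in WT SLAMF6+ (0.15, interval -0.05 to 0.35, adjusted p = 0.214). Rgs14 was called higher in CXCR6+ with GC and length offsets (0.40, edgeR adjusted p = 0.00354, range over the alternatives 0.00166 to 0.559). It was also called with only the WT libraries in the fit (0.28, edgeR adjusted p = 0.0251) and with the 10 CPM filter (0.42, edgeR adjusted p = 0.00166).

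Rgs3 averaged 20.1 ± 3.66 CPM in WT CXCR6+ and 16.3 ± 1.11 in WT SLAMF6+ (log2 fold change 0.31, interval 0.02 to 0.59, edgeR adjusted p = 0.0960). Rgs3 was called higher in 5 of 27 alternative settings. Among them were those without WT CXCR6+ replicate 5, its lowest library at 14.4 CPM (0.41, edgeR adjusted p = 0.00808, range over the alternatives 0.00256 to 0.279), and without both libraries numbered 5. The others were only the WT libraries in the fit (0.44, edgeR adjusted p = 0.0157), the 10 CPM filter (0.57, edgeR adjusted p = 0.00256) and DESeq2 (0.35, Wald adjusted p = 0.0343). Rgs16 had a standard deviation of 32.2% of the mean in WT CXCR6+, the widest of the 7 genes there, and 11.9% in WT SLAMF6+ (0.25, interval -0.23 to 0.74, adjusted p = 0.403). Without WT CXCR6+ replicate 3 it was called higher in CXCR6+ (0.43, edgeR adjusted p = 0.0204, range 0.0204 to 0.744). It was also called without both libraries numbered 3 and with the 10 CPM filter (0.51, edgeR adjusted p = 0.0389).

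Within the DKO pair there is no replicate and no test. On the log2 scale, DKO CXCR6+ against DKO SLAMF6+ gave -0.65 for Rgs10 (95% counting interval -0.78 to -0.53), from 957 and 1201 counts. Rgs19 gave 0.42 (0.30 to 0.54), from 1569 and 935 counts. Rgs10 was thus lower in CXCR6+ in the DKO pair and in WT, while Rgs19 was higher in CXCR6+ in the DKO pair and lower in WT. Rgs14 gave 0.17 (0.02 to 0.33), and the intervals of Rgs1, Rgs2 and Rgs3 included 0. These intervals cover counting error only, and reads amplified without molecular identifiers are not independent molecules.

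Per length, in CPM per kb of the longest protein-coding transcript, the leading Rgs gene was Rgs10 in both DKO libraries and Rgs1 in both WT subsets. In DKO CXCR6+ the order of levels was Rgs10 at 126, Rgs19 at 120.0, Rgs14 at 42.2, Rgs3 at 10.7, Rgs1 at 4.85 and Rgs2 at 1.53 CPM per kb, and in DKO SLAMF6+ it was the same, with Rgs10 at 198 and Rgs19 at 89.6. In WT CXCR6+ Rgs1 led with 119 CPM per kb, ahead of Rgs16 with 43.5, Rgs19 with 34.4 and Rgs10 with 30.5, whose libraries overlapped. Rgs14 with 11.4 and Rgs2 with 11.3 CPM per kb could not be separated, and Rgs3 had 4.29. In WT SLAMF6+ the order was Rgs1 with 139, Rgs10 with 78.5, Rgs19 with 57.8, Rgs16 with 36.5, Rgs2 with 13.6, Rgs14 with 10.3 and Rgs3 with 3.46 CPM per kb, with no overlap between neighbours.

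The 8 genes summed to 305 CPM per kb in DKO CXCR6+, against 199.9 to 310 in WT CXCR6+. They summed to 343 CPM per kb in DKO SLAMF6+, against 306 to 364 in WT SLAMF6+. Both sums lay within the WT range of their subset, while the makeup did not. Rgs1 made up 1.59% of the sum in DKO CXCR6+ and 1.66% in DKO SLAMF6+, against 44.0% to 49.0% in WT CXCR6+ and 38.9% to 43.2% in WT SLAMF6+. Rgs10 made up 41.2% in DKO CXCR6+ and 57.7% in DKO SLAMF6+, against 7.91% to 17.5% in WT CXCR6+ and 21.4% to 25.0% in WT SLAMF6+. Rgs19 made up 39.3% and 26.1%, against 10.9% to 16.4% in WT CXCR6+ and 15.0% to 18.6% in WT SLAMF6+. Rgs16 was 0 in both DKO libraries, against 10.6% to 20.4% in WT CXCR6+ and 9.69% to 11.5% in WT SLAMF6+.

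**Figure D3:**
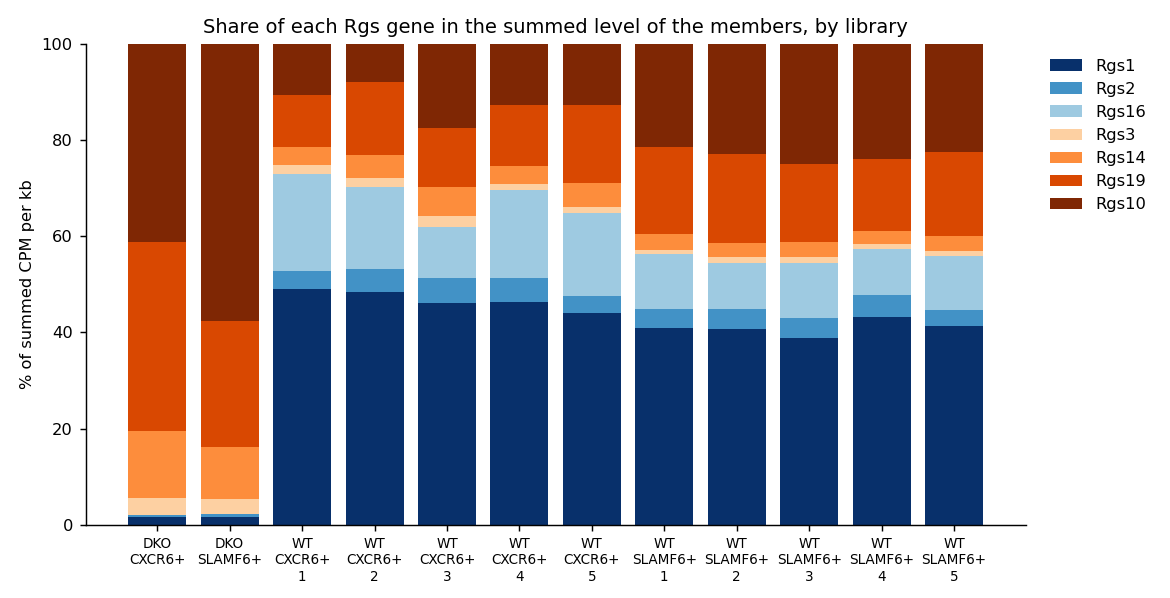
Share of each Rgs gene, in percent, in the summed CPM per kb of the 8 genes, with 1 bar per library starting at 0 and reaching 100%. Rgs1 and Rgs16 fill most of the lower part of each WT bar, and Rgs10 and Rgs19 fill most of each DKO bar. Rgs18, with 1 count in 1 library, is not drawn.

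Of the 14 other Rgs genes in the table, 4 averaged at least 1 CPM over the 12 libraries. Rgs11, of the R7 subfamily that pairs with the G beta subunit Gnb5, had 12.02 CPM in DKO CXCR6+, against 80.3 to 116 CPM in WT CXCR6+. In DKO SLAMF6+ it had 12.2 CPM, against 49.6 to 65.7 CPM in WT SLAMF6+. It fell 8.51-fold in DKO CXCR6+ (edgeR adjusted p = 5.13e-06) and 4.46-fold in DKO SLAMF6+ (adjusted p = 4.8e-05), and was 1.89-fold higher in CXCR6+ than in SLAMF6+ cells of WT (adjusted p = 9.18e-05). Its partner Gnb5 had 2.20 CPM in DKO CXCR6+ and 10.7 in DKO SLAMF6+, against 41.9 ± 7.73 CPM in WT CXCR6+ and 62.1 ± 5.52 in WT SLAMF6+. Rgs12 had 1.39 CPM in DKO CXCR6+ and 6.66 in DKO SLAMF6+, against 7.67 ± 1.49 CPM in WT CXCR6+ and 8.47 ± 1.75 in WT SLAMF6+. It fell 5.49-fold in DKO CXCR6+ (edgeR adjusted p = 0.00129) and was not called in DKO SLAMF6+ (adjusted p = 0.506). The DKO effect on Rgs12 gave a log2 difference of -2.11 between the subsets. It rests on 12 counts in the DKO CXCR6+ library and 46 in the DKO SLAMF6+ library, and alternative settings were not examined for Rgs12. Rgs8 had 0 counts in both DKO libraries and at most 3.51 CPM in WT, and Rgs9 had 0 and 3 counts in DKO CXCR6+ and DKO SLAMF6+ and at most 4.67 CPM in WT.

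The G proteins that RGS proteins act on, and the receptors and effectors around them, changed in both directions; these counts are given for TMM scaling only. They stand beside 28.7% of all tested genes called in DKO CXCR6+ (12.8% higher and 15.9% lower), 31.1% in DKO SLAMF6+ (13.5% and 17.5%) and 33.3% in the WT comparison (15.6% and 17.7%), and nothing particular to a list is read from them. Of 24 tested chemoattractant and lipid receptors, 8 rose and 6 fell in DKO CXCR6+, and 11 rose and 9 fell in DKO SLAMF6+. In WT, 1 was higher and 10 lower in CXCR6+ than in SLAMF6+. Cxcr3, a receptor for interferon-induced chemokines, had 217 CPM in DKO CXCR6+, against 13.2 ± 2.28 CPM in WT CXCR6+ (edgeR adjusted p = 3.49e-07). It had 229 CPM in DKO SLAMF6+, against 11.6 ± 2.21 CPM in WT SLAMF6+ (adjusted p = 2.57e-07). S1pr4, a sphingosine 1-phosphate receptor, had 232 and 223 CPM in DKO CXCR6+ and DKO SLAMF6+, against 24.3 ± 3.80 CPM in WT CXCR6+ and 33.7 ± 3.85 in WT SLAMF6+, and was called higher in both. Ccr7, the receptor that guides T cells to lymph nodes, averaged 352 ± 78.8 CPM in WT CXCR6+ and 760 ± 42.7 in WT SLAMF6+ (adjusted p = 8.01e-05).

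Among 11 tested G alpha subunits, 1 rose and 3 fell in DKO CXCR6+, and 4 rose and 3 fell in DKO SLAMF6+, while in WT 3 were higher and 3 lower in CXCR6+. Gna15, a Gq-class subunit of blood cells, had 112 CPM in DKO CXCR6+, against 6.53 ± 2.50 CPM in WT CXCR6+ (edgeR adjusted p = 1.21e-05). It had 104.0 CPM in DKO SLAMF6+, against 13.2 ± 2.72 CPM in WT SLAMF6+ (adjusted p = 0.00014). Gnai3, a target of several RGS proteins, averaged 54.0 ± 4.86 CPM in WT CXCR6+ and 122 ± 11.1 in WT SLAMF6+ (adjusted p = 2.12e-06). Of 13 G beta and gamma subunits, 5 rose and 4 fell in DKO CXCR6+, 1 rose and 5 fell in DKO SLAMF6+, and in WT 1 was higher and 7 lower in CXCR6+.

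Of 21 tested effectors of receptor signals, 12 rose and 2 fell in DKO CXCR6+, 11 rose and 2 fell in DKO SLAMF6+, and 9 were higher and 3 lower in CXCR6+ than in SLAMF6+ cells of WT. The median log2 fold change of the effectors was 0.84 in DKO CXCR6+, 0.82 in DKO SLAMF6+ and 0.59 in WT, against -0.22, -0.05 and 0.13 over all tested genes. Dock2, which activates Rac in migrating lymphocytes, had 325 CPM in DKO CXCR6+, against 76.5 ± 8.76 CPM in WT CXCR6+ (edgeR adjusted p = 6.66e-07). It had 256 CPM in DKO SLAMF6+, against 48.7 ± 1.99 CPM in WT SLAMF6+ (adjusted p = 2.71e-07). Of 7 receptor kinases and arrestins, which also end receptor signals, 3 rose and 1 fell in DKO CXCR6+, 4 rose and 1 fell in DKO SLAMF6+, and 4 were higher and none lower in WT CXCR6+. Of 11 other modulators of G alpha, 1 rose and 3 fell in DKO CXCR6+, 2 rose and 4 fell in DKO SLAMF6+, and 2 were higher and 1 lower in WT CXCR6+.

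Among 12 tested genes of Gs-coupled receptors and the cAMP pathway, 3 rose and 4 fell in DKO CXCR6+, 1 rose and 7 fell in DKO SLAMF6+, and 1 was higher and 3 lower in WT CXCR6+. Crem, a transcription factor that binds cAMP response elements, had 9.36 CPM in DKO CXCR6+, against 139 ± 13.6 CPM in WT CXCR6+ (edgeR adjusted p = 8.82e-07). It had 7.67 CPM in DKO SLAMF6+, against 344 ± 46.4 CPM in WT SLAMF6+ (adjusted p = 2.23e-07). Crem was also called in WT, 2.47-fold lower in CXCR6+ (adjusted p = 3.63e-06).

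**Figure D4:**
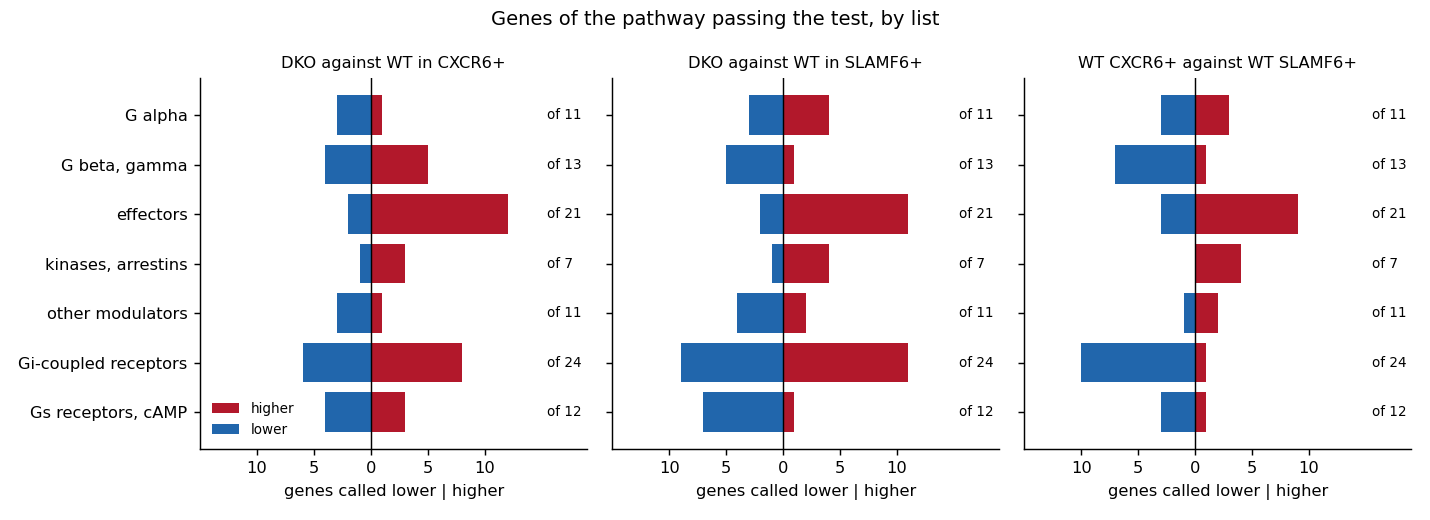
Number of tested genes called lower (left of 0) and higher (right of 0) in each list of G protein pathway genes, for DKO against WT in CXCR6+, DKO against WT in SLAMF6+ and WT CXCR6+ against WT SLAMF6+, with the number tested at the right. Of the 21 effectors, 12, 11 and 9 were called higher and 2, 2 and 3 lower. Of the 24 chemoattractant and lipid receptors, 11 were higher and 9 lower in DKO SLAMF6+. Over all tested genes, 12.8%, 13.5% and 15.6% were called higher in these comparisons, and 15.9%, 17.5% and 17.7% lower.

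The genes most like each Rgs gene were sought by the root mean square difference of log2(CPM + 1) values over the 12 libraries, each gene centred on its own mean, among 4954 genes. The 2 DKO libraries enter every such value. Rgs1 was closest to Fads2 (difference 0.15) and Procr (0.24), both with 0 counts in the DKO libraries. Rgs2 was closest to Junb (0.18), an AP-1 subunit with 102 CPM in DKO CXCR6+ and 128 in DKO SLAMF6+, against 581 ± 64.5 CPM in WT CXCR6+ and 715 ± 57.3 in WT SLAMF6+, and next to Ctsz (0.20). The nearest to Rgs16 were Timd2 (0.41) and Penk (0.44). Rgs3 was closest to Tug1 (0.17) and Trim26 (0.18), and Rgs10 to Sptssa (0.19) and Tmsb10 (0.22).

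The 2 nearest genes to Rgs14 were Arhgap45 (0.14) and Lat (0.15), an adaptor of the T cell receptor with 899 CPM in DKO CXCR6+ and 988 in DKO SLAMF6+, against 315 ± 23.6 CPM in WT CXCR6+ and 283 ± 31.2 in WT SLAMF6+. Those nearest to Rgs19 were Selplg (0.14), the P-selectin ligand, and Pigbos1 (0.14). Selplg had 983 CPM in DKO CXCR6+ and 843 in DKO SLAMF6+, against 299 ± 41.3 CPM in WT CXCR6+ and 497 ± 40.6 in WT SLAMF6+.

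Rgs1, Rgs2, Rgs16 and Rgs18 lie on chromosome 1. Rgs2 (GRCm38 chr1:143999338-144004161, minus strand), Rgs1 (chr1:144242296-144249242, minus strand) and Rgs18 (chr1:144752683-144775435, minus strand) lie near each other there, and Rgs16 lies farther along (chr1:153740349-153745468, plus strand). Of the 8 genes, those called higher in DKO lie on other chromosomes: Rgs3 on chr4:62559847-62704001 (plus strand), Rgs10 on chr7:128373621-128418758 (minus strand), Rgs14 on chr13:55369732-55384687 (plus strand) and Rgs19 on chr2:181688419-181693977 (minus strand). Any part of position in the direction of change was not tested. All 8 are annotated as protein-coding.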

How the data were processed

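RNA-seq libraries of 1000 sorted cells were made by a modified SMART-Seq2 protocol with Nextera XT kits and read as pairs of 38 bases, per the labels' protocols. The authors deposited 1 table of expected counts by gene symbol; the submitters' processing notes name RSEM 1.3.3, STAR 2.7.7a and mm10. All values were whole numbers, so rounding changed none. The sources used here do not name the annotation or read filters. Coordinates and lengths came from GENCODE M21 (GRCm38).

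Groups followed the labels. All 12 libraries entered 1 edgeR 4.0.16 quasi-likelihood fit in R 4.3.3 (TMM scaling, filterByExpr with groups, 21565 genes kept, 8 residual degrees of freedom), with Benjamini-Hochberg adjustment and a threshold of 0.05. Rgs18 failed the filter and was not tested. The same steps were also run on simulated data in which all libraries were given the same spread. That run cannot check whether DKO libraries vary like WT. Intervals are 95% and the floor is 3 counts per library. The 8 genes and the gene lists were chosen with earlier results of these data known.

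Named besides the 8 genes were other Rgs genes of at least 1 CPM, examples among the pathway genes with the smallest p in each comparison, at most 3 per list in WT and 2 in each DKO comparison, and the 2 genes of at least 20 CPM most like each Rgs gene; Gnb5, Crem and the others named in the pathway lists come from that rule. Alternatives replaced the scaling, the test (DESeq2 1.42.0, limma-voom with limma 3.58.1), the filter, the library size, the samples, the threshold, the replicate block, GC content and transcript length (values for 90.5% of tested genes), a term for mt-Ts1, and left out libraries.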

Additional observations from a re-analysis of the deposited data

Results flagged for a closer look

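Rgs14 had 22.6 CPM in WT CXCR6+ replicate 1, against 27.3 to 29.0 CPM in the other 4 WT CXCR6+ libraries. That library's gap to its nearest neighbour was 0.737 of the range of the group, above the 95% critical value of 0.71 for 5 samples. It was the only such library among 14 groups examined, and chance gives such a gap in about 1 group in 20. The library is also the WT CXCR6+ library with mt-Ts1 listed at 0, and the part of that was not tested.

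For Rgs19 a different DKO effect in CXCR6+ and SLAMF6+ cells was called, with a log2 difference of 1.17 (edgeR adjusted p = 0.0452, range over the alternatives 0.00221 to 0.222). The call held in 11 of 26 alternatives. The DKO CXCR6+ library was above all 5 WT CXCR6+ libraries, and the DKO SLAMF6+ library above all 5 WT SLAMF6+ libraries. Each subset has 1 DKO library. These 2 libraries also differed in neutrophil markers (929 CPM in DKO CXCR6+ and 91.8 in DKO SLAMF6+) and in haemoglobin genes, at 11.9% of counts in DKO SLAMF6+. The part of either was not tested.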

How the results depend on the processing

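Of 735 fold changes of Rgs genes under the alternatives, 664 kept their direction and side of the threshold, 33 lost a call, 12 gained one and 26 changed sign, of which 0 were called with either setting. In WT these were Rgs1 (0.037) with the 10 CPM filter and Rgs2 (0.094) with GC and length offsets. The others were values of the interaction, where Rgs1 gave 0.041 with no filter, 0.0043 without receptor, mitochondrial and ribosomal protein genes, 0.0064 with limma-voom with and without the random block, 0.0051 with the fixed block, 0.66 with GC and length offsets, and -0.088 to 0.067 with WT libraries left out. Rgs10 gave -0.0080 with GC and length offsets. Rgs14 gave -0.042 with DESeq2 size factors, -0.25 with the 10 CPM filter, -0.036 with DESeq2, -0.15 with GC and length offsets, and -0.044 to 0.097 with WT libraries left out; the cause was not tested. In WT, the number of genes called fell to 2841 when at least a 2-fold change was asked for, against 7179 without. The Rgs genes called in WT were then 1, against 2 without that bound, and were 5 with a filter of 10 CPM and 4 with only the WT libraries in the fit; the cause was not tested. In WT, 3939 genes were called higher and 2437 lower with GC and length offsets, and 2843 higher and 2463 lower with the 10 CPM filter, against 3363 higher and 3816 lower. Those settings moved the median log2 fold change of all genes by 0.24 and 0.26. In DKO SLAMF6+, 4153 genes were called higher and 2864 lower with GC and length offsets, against 2913 and 3784, and the interaction called 781 higher and 902 lower, against 1372 and 849. The interaction called 0 Rgs genes with DESeq2 size factors, with no filter, with the fixed replicate block, with the mt-Ts1 term and with GC and length offsets. Leaving out WT libraries gave 5826 to 6949 genes and 2 to 3 Rgs genes called in WT, 5614 to 6203 and 7 in DKO CXCR6+, 5954 to 6885 and 6 to 7 in DKO SLAMF6+, and 1687 to 2347 and 0 to 1 in the interaction.

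The labels do not say whether WT libraries with the same replicate number belong together. The correlations below cannot decide this, since the highest between a CXCR6+ library and any SLAMF6+ library was only 0.13. Correlations of deviations of libraries with the same number were -0.01 to 0.08 over 7876 genes, and no library correlated best with its own number. With the number as a fixed replicate block, 6943 genes were called in WT and the Rgs19 interaction was 1.20 (edgeR adjusted p = 0.0517). For DKO against WT the fixed block could not be fitted, and the random block was fitted with limma-voom, which gave an adjusted p for Rgs16 of 0.128 in CXCR6+ and 0.139 in SLAMF6+, against 0.127 and 0.138 with limma-voom and no block. With 1 DKO library per subset, the spread among DKO cells is unknown, and 40 to 46 counts limit the precision of Rgs2 there.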
